A study of Mus musculus with 30 samples.

Results

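The comparison set all 15 libraries from PS2APP mice against all 15 from non-transgenic (non-Tg) littermates, with the sorted population as an additive term, so that 1 genotype effect was estimated across myeloid cells, astrocytes and neurons. Each of the 30 libraries of the series entered it. They held brain cells of mice aged 11.5 months, sorted as Cd11b+ myeloid cells, Gfap+ astrocytes or NeuN+ neurons, with 5 libraries in each of the 6 groups. PS2APP mice carry transgenes for human amyloid precursor protein and presenilin 2, and the non-Tg littermates carry none. A gene was called when its adjusted p in edgeR's quasi-likelihood test was below 0.05. It was counted as shared when it was called, was tested in each population alone, and had the same sign of change in all 3. The rule gave 1936 shared genes of 18101 tested.

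In the PS2APP line, as background, amyloid precursor protein is driven by a Thy1 promoter, and amyloid plaques form with age. Plaques are known to be met by microglia that take up lipid and debris and by astrocytes that raise Gfap, an intermediate filament protein. A change found in every sorted population can come from the cells themselves, from RNA of other cells carried through the sort, or from a property of the library. A bulk library cannot tell fewer cells of a type from less RNA per cell.

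Across the populations, 3 genes set the scale of the shared change. Thy1, a surface glycoprotein of neurons, rose by 1.56 ± 0.17 on the log2 scale (SE; adjusted p = 2.05e-07, edgeR). Gfap rose by 1.72 ± 0.19 (adjusted p = 3.52e-07), and Arhgap6, which encodes a GTPase-activating protein, rose by 4.24 ± 0.44 (adjusted p = 1.68e-07). On the lower side, the neuronal potassium channel gene Kcnh7 fell by 1.18 on the log2 scale, with an SE of 0.16 (adjusted p = 2.31e-05). Its chromosome 2 neighbour Gca, which encodes the calcium-binding protein grancalcin, fell by 1.28, with an SE of 0.26 (adjusted p = 0.0025).

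The share of all tested genes that passed was 12.7%, that is 2296 of 18101, of which 1271 (7.02%) were higher and 1025 (5.66%) lower in PS2APP libraries. With median-of-ratios factors in place of TMM, 65.7% of the called genes were higher, against 55.4% with TMM. Of the 2296, 326 were not tested in each population and 34 were called without 1 common direction. The remaining 1936, 10.7% of all genes tested and 18.1% of the 10700 tested in each population, were 1134 higher (6.26% of all genes tested) and 802 lower (4.43%). Over the 10700, called or not, 53.4% had a common direction. Among genes tested in each population and not called, 43.3% also had a common direction, and the additive fit favours genes whose 3 effects point the same way. The common direction of a called gene is therefore no separate evidence.

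Most of these calls were lost when a property of the libraries that itself differed by genotype was added to the fit. With each library's mitochondrial share of counts as a covariate, 36 genes were shared. With each library's slope of expression on transcript GC content as a covariate, a setting chosen after the data were seen, 13 were shared. Both measures differed by genotype, so their part in the shared change and that of genotype cannot be told apart for most genes. Shared in both of these fits were Arhgap6, Thy1, Gfap, Kcnh7, Rnf213 and the predicted gene Gm33272. Of these, all but Kcnh7 were also kept in each of the 48 alternatives other than the test against a fold of 1.5. Kcnh7 was lost without the neuron libraries, at -0.92 (adjusted p = 0.0558). Adding either covariate also lowered recovery in simulated data. Of 100 true 2-fold changes, 49 were found without a covariate, 32 with the mitochondrial share and 29 with the GC slope. Of 100 true 1.5-fold changes, 24, 4 and 10 were found. The simulated counts were drawn around population means, with no trend on either measure, unlike the libraries. The part of such lost power in the lost calls was not tested.

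Tested alone, the populations gave few of these calls. Of the shared genes, 287 were called in the myeloid libraries alone, 18 in the astrocyte libraries alone and 1 in the neuron libraries alone. The background was 3.34%, 0.191% and 0.00632% of the additively tested genes that were tested there, and 1635 shared genes were called in none. The median size of a shared change was 0.57 on the log2 scale, and 40 shared genes rose and 51 fell at least 2-fold.

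Before single genes are described, 3 libraries need naming. On the first principal component within its population, the library farthest out was PS2APP replicate 4 among myeloid libraries, PS2APP replicate 3 among astrocyte libraries and PS2APP replicate 5 among neuron libraries. That component held 26.8%, 35.1% and 58.6% of the variance. Without these 3 libraries, 710 genes were shared, and Thy1, Gfap, Arhgap6, Kcnh7 and Gca stayed among the called genes, with Gca at an adjusted p of 0.0162. No label ties libraries to an animal. If an animal gave several populations, the additive p-values are too small, and they measure only the spread between these libraries.

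Thy1 (chromosome 9, 44043384 to 44048579, GRCm38) was higher in every PS2APP library than in any non-Tg library of the same population. In myeloid libraries it stood at 7.45, 12.5, 15.2, 29.0 and 33.3 CPM in non-Tg and at 62.5, 66.6, 73.4, 89.0 and 113 CPM in PS2APP. In astrocyte libraries the non-Tg levels were 27.7, 29.5, 29.9, 31.4 and 47.5 CPM and the PS2APP levels 53.0, 66.9, 90.7, 97.6 and 118 CPM. The groups were as clearly apart in neurons, where Thy1 is normally made. There it stood at 65.8, 93.7, 97.0, 102 and 123 CPM in non-Tg and at 151, 236, 263, 269 and 285 CPM in PS2APP. The log2 fold changes were 2.14 ± 0.32, 1.37 ± 0.24 and 1.31 ± 0.19 (SE) in myeloid, astrocyte and neuron libraries. The test of a difference between the 3 gave an adjusted p of 0.598 in edgeR.

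Neuronal RNA moved with Thy1 in the glial sorts. The 16 neuron markers summed to 767 to 943 CPM in PS2APP against 465 to 759 CPM in non-Tg libraries of myeloid cells, and to 1730 to 3360 CPM and 1100 to 1660 CPM in astrocyte libraries. In neuron libraries their sums overlapped, at 3810 to 6000 CPM in PS2APP and 3390 to 4540 CPM in non-Tg. None of the 16 was at 0 throughout a population. The part of these markers in the Thy1 result in glia was not tested. With markers of the other sorted populations as a covariate, Thy1 was higher by 1.41 on the log2 scale (adjusted p = 1.45e-06).

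The other genes tied to the transgenes differed less. App, which encodes the amyloid precursor protein (chromosome 16, 84952666 to 85175255, GRCm38), rose by 0.50 ± 0.12 (SE; adjusted p = 0.00644). Its levels were 145 CPM against 98.4 CPM at the median in myeloid libraries, 127 against 87.4 CPM in astrocyte libraries and 298 against 250 CPM in neuron libraries, PS2APP first, and the genotypes overlapped in each. How many reads of the human transgene aligned uniquely to the mouse gene model is not given in the sources used here. With the mitochondrial share as a covariate the App difference was 0.28 (adjusted p = 0.308), with the GC slope 0.18 (adjusted p = 0.875), and without the 3 libraries farthest out 0.37 (adjusted p = 0.0508). Psen2, the presenilin gene, was not called at 0.30 ± 0.31 (adjusted p = 0.561), nor was Prnp, the prion protein gene, at 0.07 ± 0.17 (adjusted p = 0.824).

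Gfap (chromosome 11, 102887336 to 102897200, GRCm38) also separated the genotypes in all 3 populations. Its levels in myeloid libraries were 12.2, 15.4, 15.5, 22.7 and 23.5 CPM in non-Tg and 82.4, 87.9, 103, 134 and 172 CPM in PS2APP. The astrocyte libraries, sorted on the Gfap protein itself, held 442, 719, 774, 797 and 922 CPM in non-Tg and 1050, 1110, 1220, 1440 and 1550 CPM in PS2APP. Neuron libraries held little Gfap, at 2.17, 2.92, 3.31, 3.85 and 4.88 CPM in non-Tg and 8.07, 9.35, 9.69, 15.2 and 16.4 CPM in PS2APP. The size of the change differed between populations (adjusted p = 0.00532 in edgeR), with log2 fold changes of 2.77 ± 0.25 in myeloid, 0.82 ± 0.19 in astrocyte and 1.78 ± 0.26 in neuron libraries (SE).

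Summed, the astrocyte markers besides Gfap did not rise with it. The 11 astrocyte markers besides Gfap summed to 588 to 889 CPM in PS2APP against 594 to 1120 CPM in non-Tg myeloid libraries, and to 249 to 492 CPM and 354 to 543 CPM in neuron libraries. In astrocyte libraries they stood at 7510 to 12000 CPM in PS2APP and 10700 to 18500 CPM in non-Tg. One by one, 3 of the 11 had a higher mean in PS2APP in myeloid, 4 in astrocyte and 7 in neuron libraries. Of the 12 tested astrocyte markers, 2 were called higher, Gfap and the transcription factor gene Sox9, and 5 lower, with a median of -0.31. Over all genes tested, 7.02% were called higher and 5.66% lower. Sox9 stood at 195 to 682 CPM in PS2APP and 143 to 339 CPM in non-Tg astrocyte libraries, with 682 CPM in PS2APP replicate 3. Without the 3 libraries farthest out, Sox9 was not called (adjusted p = 0.114). The glutamate transporter genes Slc1a3 and Slc1a2 were shared at -0.49 ± 0.12 and -0.40 ± 0.13 (SE; adjusted p = 0.00893 and 0.0304). The water channel gene Aqp4 was lower by 0.92 ± 0.21 (adjusted p = 0.0049), but its direction differed among populations, with -1.64 in myeloid, -0.98 in astrocyte and 0.18 in neuron libraries.

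**Figure D1:**
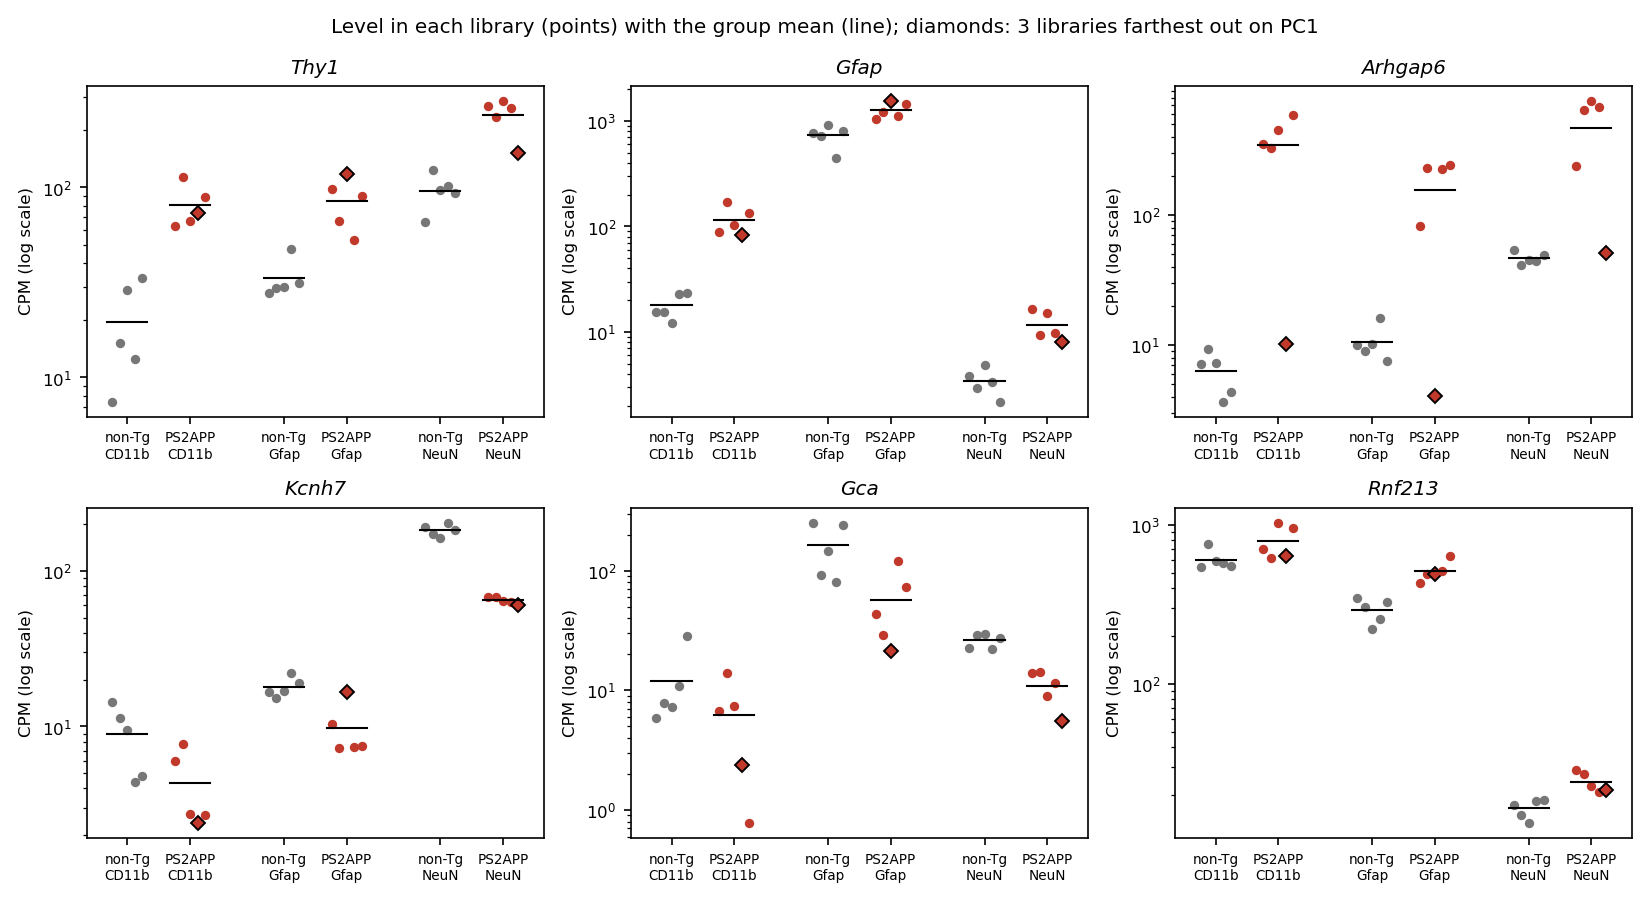
Normalised level (CPM, log axis) of 6 shared genes in each library, by genotype and population, with the group mean as a line and the 3 libraries farthest out on the first principal component as diamonds. Thy1 and Gfap separate the genotypes in every population, while Arhgap6 is low in the 3 diamond libraries.

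The groups did not overlap, in a common direction, in all 3 populations for 3 genes, 0.0166% of those tested. These were Thy1, Gfap and Zfyve16, which encodes an endosomal FYVE-domain protein and was named after its values were seen. In single populations, in either direction, the groups did not overlap for 3.98% of genes in myeloid, 2.71% in astrocyte and 2.88% in neuron libraries. Zfyve16 stood at 33.7 to 54.5 CPM in PS2APP against 57.8 to 84.6 CPM in non-Tg myeloid libraries. In astrocyte libraries its ranges were 42.7 to 59.4 and 67.1 to 89.6 CPM, and in neuron libraries 35.0 to 60.2 and 60.7 to 80.5 CPM. It fell by 0.60 on the log2 scale, with an SE of 0.11 (adjusted p = 0.000673, edgeR). With the mitochondrial share or the GC slope as a covariate, the call was lost (adjusted p = 0.0927 and 0.4657).

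Arhgap6 (chromosome X, 168795094 to 169304440, GRCm38) had the largest additive fold change among shared genes with a full symbol and an average log2 CPM of at least 3. In myeloid libraries it stood at 3.66 to 9.28 CPM in non-Tg and at 10.1, 329, 355, 454 and 588 CPM in PS2APP. The astrocyte libraries held 7.48 to 16.1 CPM in non-Tg and 4.07, 83.0, 227, 229 and 242 CPM in PS2APP. The neuron libraries held 41.2 to 53.6 CPM in non-Tg and 51.0, 239, 641, 674 and 755 CPM in PS2APP. So 12 of the 15 PS2APP libraries lay far above their controls and 3 did not. Those 3, at 10.1, 4.07 and 51.0 CPM, were the libraries farthest out on the first principal component.

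In the same 3 libraries Thy1 was at 73.4, 118 and 151 CPM (myeloid, astrocyte and neuron), above every non-Tg library of its population. Gfap there was at 82.4, 1550 and 8.07 CPM, again above every non-Tg library. Kcnh7 there was at 2.39, 16.6 and 60.7 CPM, below every non-Tg library in the myeloid and neuron populations and within the non-Tg range in astrocytes. Without them, Arhgap6 was higher by 4.58 on the log2 scale (adjusted p = 1.90e-14).

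Genes beside Arhgap6 were followed along chromosome X. Those that start before it within 1500000 bases, Tlr7, Prps2, Frmpd4 and Msl3, were not called in the additive fit, at -0.44, 0.17, -0.32 and 0.24, with 0.235 as the smallest adjusted p. Tlr7 could be tested alone only in myeloid libraries, where it was called lower, at -0.90 (adjusted p = 0.0271). Amelx, the enamel matrix gene that lies inside Arhgap6, was higher by 4.23 ± 0.47 (adjusted p = 3.52e-07) but did not pass the count filter in the glial sorts alone. Its mean was 2.94 CPM in myeloid, 6.35 CPM in astrocyte and 6.57 CPM in neuron libraries. Whether the authors' counting used strand is not given in the sources used here, so reads of Amelx and Arhgap6 may not be separable. Further on, Hccs, which attaches haem to cytochrome c, rose by 1.16 ± 0.27 (adjusted p = 0.00554). The predicted gene Gm15246 beside it was higher by 0.92 ± 0.28 (adjusted p = 0.027) but was not tested in myeloid libraries alone. Mid1, a microtubule-associated ubiquitin ligase gene, rose by 0.96 ± 0.23 (adjusted p = 0.00602), and the last gene of the window, Erdr1, by 2.18 ± 0.33 (adjusted p = 0.000129).

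Hccs and Mid1 were also low in the 3 libraries that lacked the Arhgap6 rise, though not only there. Hccs stood there at 2.98, 3.05 and 3.36 CPM (myeloid, astrocyte and neuron), and Mid1 at 12.5, 31.9 and 5.72 CPM, none above the highest non-Tg library of its population. PS2APP astrocyte replicate 1, which had the Arhgap6 rise, was also within the non-Tg range, with Hccs at 6.41 CPM and Mid1 at 33.9 CPM. So was Mid1 in PS2APP neuron replicate 1, at 5.67 CPM, and in PS2APP myeloid replicates 1 and 3, at 31.8 and 38.4 CPM. In the 3 libraries without the Arhgap6 rise, Erdr1 stood at 14.3, 32.2 and 27.3 CPM, above the highest non-Tg values of 9.28, 8.18 and 8.95 CPM. Gm33272, placed on chromosome Y at 90793687 to 90806846 in the GRCm38.p6 table, rose by 3.43 ± 0.47 (adjusted p = 2.30e-05). In the 3 libraries it stood at 0.597, 1.02 and 2.52 CPM, against 30.6 to 72.4, 32.1 to 173 and 40.4 to 162 CPM in the other PS2APP libraries. Both genes lie in sequence with close copies, and the counts are of uniquely aligned reads.

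Kcnh7 (chromosome 2, 62693410 to 63184287, GRCm38) was the shared gene of smallest p among those that fell. In neuron libraries it stood at 162, 173, 184, 192 and 204 CPM in non-Tg and at 60.7, 62.6, 63.7, 68.2 and 68.2 CPM in PS2APP, a gap far wider than either spread. Astrocyte libraries held 15.2 to 22.1 CPM in non-Tg and 7.30 to 16.6 CPM in PS2APP, with overlap through 1 library. Myeloid libraries held 4.42 to 14.4 and 2.39 to 7.72 CPM, also overlapping. The log2 fold changes were -0.96 ± 0.53, -0.85 ± 0.32 and -1.51 ± 0.11 (SE) in myeloid, astrocyte and neuron libraries.

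Gca (chromosome 2, 62664327 to 62694109) overlaps the end of Kcnh7. Its highest levels were in astrocytes, at 80.7, 92.2, 147, 243 and 253 CPM in non-Tg and 21.4, 28.8, 43.1, 73.8 and 120 CPM in PS2APP. In neuron libraries it stood at 22.0 to 29.8 CPM in non-Tg and 5.55 to 14.2 CPM in PS2APP, with no overlap. Myeloid libraries held 5.91 to 28.3 and 0.774 to 13.9 CPM, with overlap. Of 12 genes tested within 1500000 bases of Kcnh7, Kcnh7 and Gca were called. The gene before them, Ifih1, an RNA sensor, stood at -0.0022 (adjusted p = 0.995), and the next protein-coding gene after them, Fign, at -0.31 (adjusted p = 0.67).

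Upstream sequence was read for members that moved together. The 250 bases before the start, 5′ to 3′ on the gene's strand, come from RefSeq (GRCm38.p6) and carry a searched motif in capitals. Stat2, an interferon signalling factor, holds an ISRE core, read here on the other strand, at 222 bases before the start. Sbno2, a transcriptional regulator, holds a STAT core, TTCNNNGAA, at 26 bases before the start of the outermost of its 3 entries. That start lies inside the gene's full span, 80056992 to 80106108. Of the other shared interferon response genes, Rnf213 and both entries of Irf9 held none of the 5 motifs searched, nor did 1 of the 3 entries of Sbno2. Gfap is shown as the glial gene that changed in all 3 populations, also with none of the 5.
Stat2 (chr10:128270248-128270497, + strand): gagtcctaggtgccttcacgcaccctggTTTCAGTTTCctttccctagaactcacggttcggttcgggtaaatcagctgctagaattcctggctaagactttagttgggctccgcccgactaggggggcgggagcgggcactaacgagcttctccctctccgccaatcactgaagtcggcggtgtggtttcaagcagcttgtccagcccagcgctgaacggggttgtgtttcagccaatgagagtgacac
Sbno2 (chr10:80102703-80102952, - strand): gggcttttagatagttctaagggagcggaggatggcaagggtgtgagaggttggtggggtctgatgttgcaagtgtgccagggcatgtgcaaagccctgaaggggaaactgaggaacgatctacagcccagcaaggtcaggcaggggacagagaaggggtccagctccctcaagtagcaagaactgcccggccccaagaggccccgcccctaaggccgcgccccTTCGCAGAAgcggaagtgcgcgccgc
Gfap (chr11:102897201-102897450, - strand): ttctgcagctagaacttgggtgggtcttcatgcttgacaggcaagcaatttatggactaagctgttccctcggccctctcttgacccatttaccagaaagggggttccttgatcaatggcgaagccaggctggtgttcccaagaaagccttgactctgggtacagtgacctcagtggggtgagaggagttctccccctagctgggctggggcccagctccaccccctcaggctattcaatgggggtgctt

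Over all shared genes with an entry in that table, 887 higher and 600 lower, the share with each motif was counted. The ISRE core was in 3.27% of promoters of shared higher genes, 2.00% of shared lower genes and 3.13% of the 12740 promoters of all genes tested. The STAT core was in 7.22%, 7.17% and 7.19%. The E-box CACGTG was in 10.7%, 10.2% and 9.28%, and the CRE TGACGTCA in 2.93%, 3.83% and 2.72%. The heat shock element was in 0.564%, 0.167% and 0.518%. Both strands were searched, and a match is a description of letters, not of binding.

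Interferon response genes were read from a list of 24. Of these, 7 were called higher and none lower, against 12.7% called over all genes, and 4 were shared. The list's median change was 0.55 on the log2 scale, against -0.03 for all genes tested. Rnf213, a large ubiquitin ligase gene induced by interferon (chromosome 11, 119389950 to 119487418, GRCm38), rose by 0.58 ± 0.10 (SE; adjusted p = 0.000468). Astrocyte libraries held 430 to 638 CPM of it in PS2APP and 221 to 344 CPM in non-Tg, and neuron libraries 20.9 to 28.6 and 13.3 to 18.6 CPM, without overlap in either. Myeloid libraries held 619 to 1030 and 544 to 760 CPM, with overlap. The call held with the mitochondrial share (adjusted p = 0.00388) and with the GC slope (adjusted p = 0.0329) as covariates.

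Stat2 rose by 0.68 ± 0.12 (adjusted p = 0.00089), Sbno2 by 0.67 ± 0.15 (adjusted p = 0.00554) and Irf9, the DNA-binding partner of Stat2, by 0.47 ± 0.12 (adjusted p = 0.0106). With the mitochondrial share as a covariate the adjusted p of Stat2, Sbno2 and Irf9 was 0.0611, 0.118 and 0.0761, and with the GC slope 0.623, 0.93 and 0.812. Nlrc5, which switches on genes of MHC class I, was higher by 1.56 ± 0.22 (adjusted p = 2.30e-05) but was too low to be tested in neuron libraries. Of 12 MHC class I genes tested, 3 were called higher, against 7.02% of all genes tested, and none was shared, with a median of 0.43.

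Of the 26 listed genes of the microglial state known from plaques, 15 were called higher and none lower, with a median of 0.92. Over all genes tested, 7.02% were called higher. Only 13 of the 26 could be tested in each population, and 4 were shared. These were Fth1, the ferritin heavy chain gene, Apoe, a lipid carrier gene, Csf1, a myeloid growth factor gene, and the receptor tyrosine kinase gene Axl. Fth1 rose by 0.90 ± 0.14 (adjusted p = 0.000129), from 328 to 578 CPM in non-Tg to 640 to 1140 CPM in PS2APP myeloid libraries. In astrocyte libraries its ranges were 69.8 to 178 and 161 to 368 CPM, and in neuron libraries 56.8 to 85.9 and 71.1 to 120 CPM, with overlap in both. Apoe rose by 0.72 ± 0.15 (adjusted p = 0.00304), with 1.48 in myeloid, 0.15 in astrocyte and 0.60 in neuron libraries. Its call was lost when each library's smooth trend on transcript GC was removed as an offset, also a setting chosen after the data were seen (adjusted p = 0.118). Csf1 rose by 0.78 ± 0.17 (adjusted p = 0.00369), and its effect differed between populations (adjusted p = 0.00772), at 1.85, 0.39 and 0.17.

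Microglial RNA moved with genotype in the other sorts. The 12 microglia markers summed to 81.3 to 166 CPM in PS2APP and 43.8 to 80.1 CPM in non-Tg astrocyte libraries, with no overlap. In neuron libraries the sums were 53.5 to 118 and 53.1 to 78.3 CPM, and in myeloid libraries 6530 to 10200 and 9700 to 11700 CPM. None of the 12 was at 0 throughout a population. Their part in the results on immune genes in astrocyte and neuron libraries was not tested.

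A difference of the effect between populations was called for 70 genes, 0.387% of those tested, and for 10 of the shared genes, 0.517%. Several of these are myeloid genes whose change was largest in astrocyte libraries, where their level was low. Csf3r, the receptor of granulocyte colony-stimulating factor, changed by 0.55, 2.77 and 0.35 in myeloid, astrocyte and neuron libraries (adjusted p of the difference 0.00532). Myo1f, a myosin gene of immune cells, changed by 0.28, 2.64 and 0.19 (adjusted p of the difference 0.000537), and the complement gene C1qb by 0.03, 2.30 and 0.72 (adjusted p of the difference 0.0154). Others changed most in myeloid libraries. Etl4 changed by 2.73, 0.42 and 0.12 (adjusted p of the difference 0.000227), and the myosin gene Myo1e by 2.06, 0.03 and 0.17 (adjusted p of the difference 0.000537).

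Calls without a common direction show the edge of the rule. Igf1, a growth factor gene, was called at 1.56 ± 0.35 (adjusted p = 0.00488) with 3.22, 1.89 and -0.23 in myeloid, astrocyte and neuron libraries. Ahnak2 was called at 1.23 ± 0.29 (adjusted p = 0.00656) with 1.63, 2.06 and -0.09. Just inside the rule lay Stard9, whose weakest effect was 0.0038 in myeloid libraries, and just outside it Abi3, at -0.00097 in myeloid libraries.

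Of 15 complement genes tested 3 were called higher, all shared, and none lower, with a median of 0.30. Over all genes tested, 7.02% were called higher. C4b, which encodes complement component C4 and is made by reactive astrocytes, rose by 1.07 ± 0.18 (adjusted p = 0.000446). In astrocyte libraries it stood at 374 to 493 CPM in non-Tg and 801 to 1270 CPM in PS2APP, with no overlap. Myeloid libraries held 8.92 to 20.0 and 14.3 to 71.3 CPM, and neuron libraries 0.225 to 1.69 and 0.974 to 2.42 CPM, both overlapping. Its close copy C4a rose by 1.06 ± 0.20 (adjusted p = 0.00112), and the split of reads between these copies is uncertain. With the mitochondrial share as a covariate, C4b had an adjusted p of 0.0761. Of 18 reactive astrocyte genes tested, 2 were called higher, Gfap and C4b, against 7.02% of all genes tested, with a median of 0.06.

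**Figure D2:**
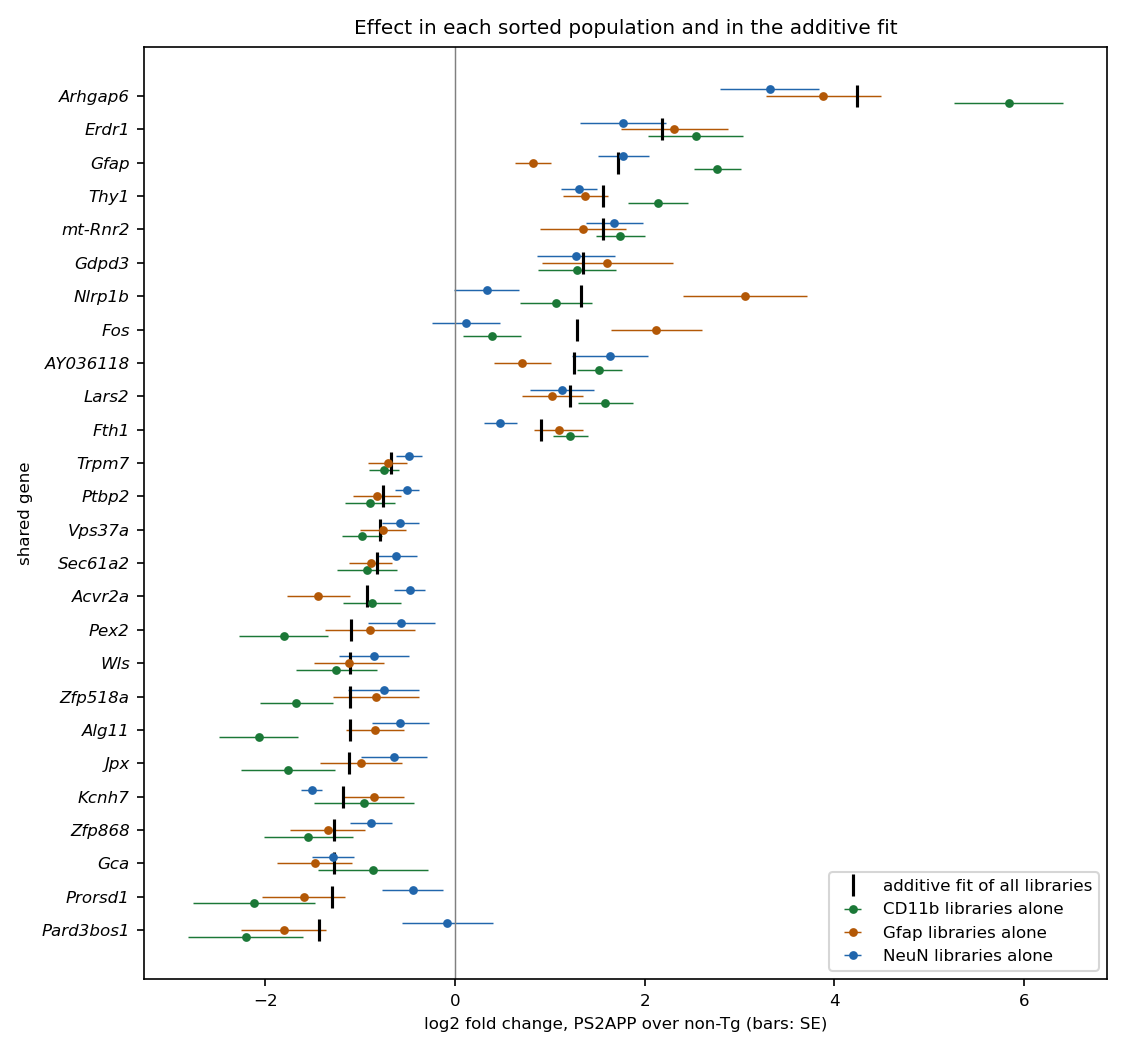
Log2 fold change (PS2APP over non-Tg) of the largest and most certain shared genes in each population alone, with SE bars, and in the additive fit (black ticks). Thy1 lies between 1.31 and 2.14 in the 3 populations, while Fos and Nlrp1b rest mainly on the astrocyte libraries and Pard3bos1 is near 0 in neurons.

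Neuronal and synaptic lists held called genes in 1 direction. Of 16 neuron markers 6 were shared and higher, with a median of 0.48, and none was called lower. The background was 6.26% of all genes tested. Of the 10700 genes tested in each population, as were 15 of the 16 markers, 1134 were shared and higher. Shared higher genes were also more abundant, at a median average log2 CPM of 6.38 against 4.82 for the 10700. The postsynaptic list had 9 of 22 shared and higher, and the presynaptic list 8 of 20, with none lower and medians of 0.32 and 0.35. Camk2a and Camk2b, subunits of the calcium-dependent kinase of synapses, rose by 0.83 ± 0.14 and 0.99 ± 0.16 (adjusted p = 0.000439 and 0.000245). Camk2b stood at 25.2 to 35.3 CPM in non-Tg and 46.3 to 67.4 CPM in PS2APP myeloid libraries, at 20.5 to 40.4 and 36.1 to 106 CPM in astrocyte libraries, and at 357 to 625 and 604 to 2110 CPM in neuron libraries. The highest of these was the neuron library farthest out, PS2APP replicate 5.

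Among the other synaptic genes, the scaffold gene Shank1 rose by 0.80 ± 0.14, and Unc13a, which primes synaptic vesicles, by 0.85 ± 0.14 (adjusted p = 0.000719 and 0.000454). The fusion gene Stx1a rose by 0.89 ± 0.24 (adjusted p = 0.0143), with 1.93 in myeloid, 0.09 in astrocyte and 0.78 in neuron libraries. Without the 3 libraries farthest out, Stx1a was not called (adjusted p = 0.1325). Rbfox3, which encodes NeuN, rose by 0.74 ± 0.18 (adjusted p = 0.00658), by 1.01 in myeloid, 0.85 in astrocyte and 0.51 in neuron libraries alone. With the GC slope as a covariate, the adjusted p was 0.784 for Shank1 and 0.836 for Rbfox3.

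Of 10 oligodendrocyte markers, which no sort selected, 2 were called (12.7% over all genes tested), both shared and higher, with a median of 0.37. These were the myelin genes Mbp and Mobp, which rose by 0.76 ± 0.14 and 0.64 ± 0.14 (adjusted p = 0.000868 and 0.00366). The 10 markers summed to 1180 to 1800 CPM in PS2APP against 719 to 1110 CPM in non-Tg myeloid libraries, and Mbp and Mobp made up most of that sum. Their myeloid means were 755 and 378 CPM in PS2APP and 446 and 216 CPM in non-Tg. Of the 10 markers, 3 had a higher mean in PS2APP than in non-Tg myeloid libraries, 9 in astrocyte and 8 in neuron libraries. Averaged over populations the sum was higher by 370 CPM in PS2APP libraries (permutation within populations, two-sided p = 0.00019, adjusted p = 0.00228 over 24 tests of composition). The markers of the other sorted populations, summed, were higher by 356 CPM (permutation p = 0.00423, adjusted p = 0.0212), with differences of 280 CPM in myeloid, 865 CPM in astrocyte and -75.9 CPM in neuron libraries. On raw library totals the second difference was 168 CPM (permutation, adjusted p = 0.245). With that sum as a covariate, 1094 genes were shared.

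RNA of mitochondria was higher in PS2APP libraries. All 7 tested mitochondrially encoded genes of the respiratory chain list were shared and higher, with a median of 0.71. The background was 6.26% of all genes tested, and 6 of the 13 listed genes were not tested. Of 19 genes on the mitochondrial chromosome tested in each population, 17 (89.5%) were shared, against 18.1% of the 10700. ND4 and ND5, subunits of complex I, rose by 0.86 ± 0.15 and 0.75 ± 0.14 (adjusted p = 0.000673 and 0.00127), and CYTB, of complex III, by 0.71 ± 0.15 (adjusted p = 0.00304). The mitochondrial ribosomal RNA mt-Rnr2 rose by 1.56 ± 0.23 (adjusted p = 8.54e-05). Lars2, which encodes the mitochondrial leucyl-tRNA synthetase, and the noncoding AY036118 lie on chromosomes 9 and 17, not on the mitochondrial chromosome. They rose by 1.21 ± 0.21 and 1.26 ± 0.22 (adjusted p = 0.000593 and 0.00059). Lars2 averaged 18370 CPM in myeloid libraries, above mt-Rnr2 at 13070 CPM. Which RNA the reads counted for Lars2 and AY036118 came from was not tested. Of 18 nuclear genes of oxidative phosphorylation tested, 1 was called, against 12.7% of all genes tested, and their median was -0.06.

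As a share of counts, mitochondrially encoded genes took 13.5% ± 2.97 in PS2APP against 8.75% ± 2.89 in non-Tg libraries of myeloid cells (SD, n = 5 each; exact permutation p = 0.0556 and adjusted p = 0.0889). Among astrocyte libraries they took 6.91% ± 1.14 and 3.58% ± 0.866 (exact permutation p = 0.00794, the smallest this design allows; adjusted p = 0.0212), and in neuron libraries 1.51% ± 0.268 and 1.20% ± 0.336 (exact permutation p = 0.151, adjusted p = 0.201). Over all 3 the difference was 2.80 percentage points (permutation p = 0.00033, adjusted p = 0.00264).

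Transcript GC content was the sequence feature that most set the shared genes apart. The median transcript GC was 55.1% in shared higher genes, 43.0% in shared lower genes and 49.4% in genes tested in each population and not called. Of genes under 40% GC, 27.5% were shared and lower and 2.61% shared and higher. Of genes over 60% GC, 0.576% were shared and lower and 28.0% shared and higher. Across 10076 genes the additive log2 fold change and GC had a Spearman rank correlation of 0.51 and a Pearson r of 0.49. Genes are not independent replicates, and these values describe the libraries. Within single populations the rank correlation was 0.35 in myeloid, 0.36 in astrocyte and 0.55 in neuron libraries.

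Each library's GC slope, the change in log2 level per 10 points of GC relative to the mean of its population, differed by genotype. It averaged 0.124 in PS2APP against -0.124 in non-Tg myeloid libraries, 0.136 and -0.136 in astrocyte libraries, and 0.160 and -0.160 in neuron libraries. The genotype difference over all libraries was 0.28 (permutation within populations, two-sided p = 6e-05, adjusted p = 0.00144). The steepest slopes were 0.574 in PS2APP neuron replicate 5 and 0.384 in PS2APP astrocyte replicate 3. Without the 3 libraries farthest out the difference was 0.219 (permutation, adjusted p = 0.00732).

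**Figure D3:**
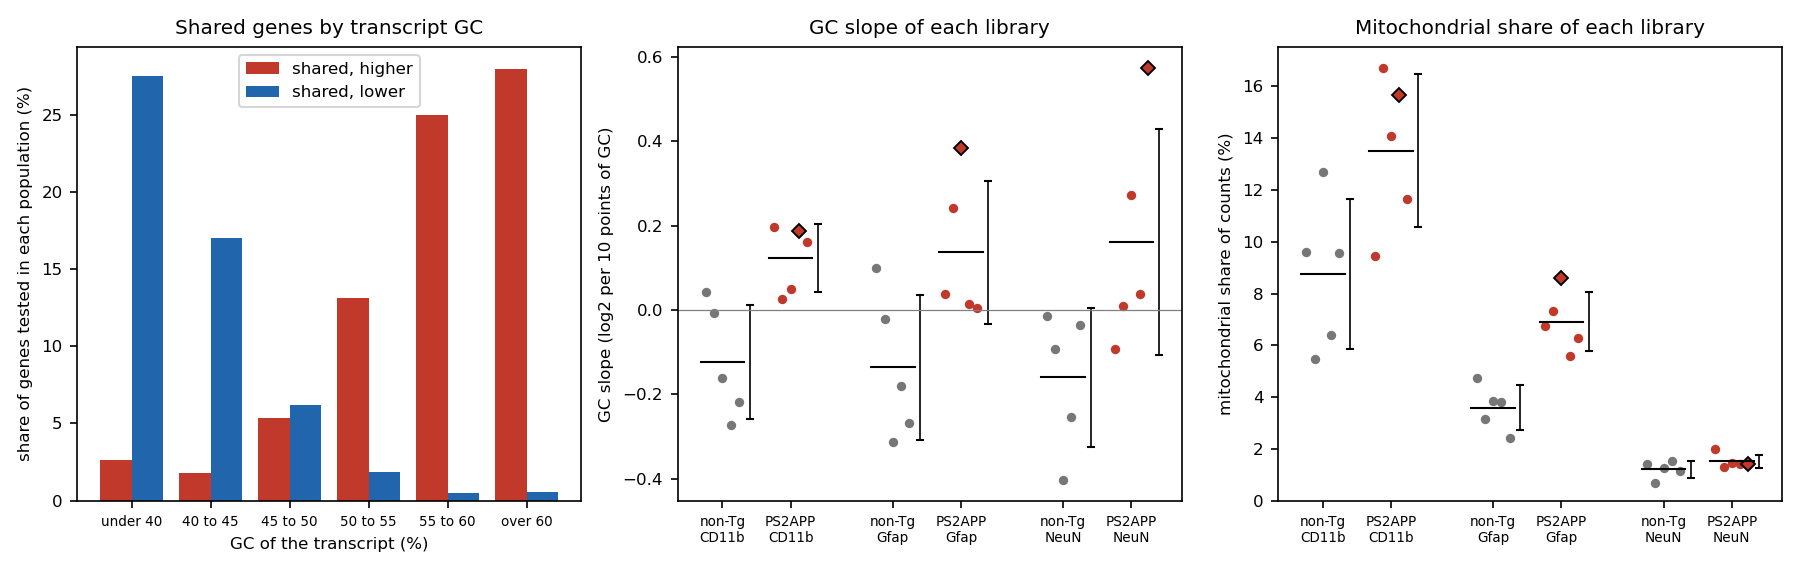
Left, share of genes tested in each population that were shared and higher or lower, by transcript GC. Middle and right, GC slope and mitochondrial share of counts of each library, with the mean as a line and the SD as a bar (n = 5 per group) and diamonds for the 3 libraries farthest out on the first principal component. Shared lower genes fall from 27.5% under 40% GC to 0.576% over 60%, and shared higher genes climb from 2.61% to 28.0%.

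The called chromatin regulators were all higher, and the called splicing factors were mostly lower. The median transcript GC was 52.0% in the first list and 41.7% in the second, against 49.6% in all genes tested that had a value. All 25 genes of each list were tested in each population, where 1134 of 10700 genes were shared and higher and 802 shared and lower. Of 25 chromatin regulators 11 were shared and higher and none lower, with a median of 0.30. Kmt2d, a histone methyltransferase gene with 58.4% GC, rose by 0.60 ± 0.13 (adjusted p = 0.00305). Smarca4, a nucleosome remodeller, and Tet3, a DNA demethylase, rose by 0.67 ± 0.14 and 0.48 ± 0.10 (adjusted p = 0.00261 and 0.00359). Of 25 splicing factors and RNA-binding proteins 7 were shared and lower and 1 shared and higher, with a median of -0.02, near the -0.03 of all genes tested.

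Hnrnpu, which binds nuclear RNA and has 40.9% GC, was lower at -0.29 ± 0.07, Rbm39 at -0.34 ± 0.09 and Srsf1, with 40.6% GC, at -0.39 ± 0.10 (adjusted p = 0.00812, 0.0103 and 0.0109). With the GC slope as a covariate the adjusted p was 0.949 for Kmt2d and 0.652 for Hnrnpu. With the GC offset, Kmt2d was called (adjusted p = 0.012) and Hnrnpu was not (adjusted p = 0.831).

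Trpm7, a channel with a kinase domain, came next after Kcnh7 by p among shared genes that fell. It stood at 99.9, 100, 102, 108 and 130 CPM in PS2APP against 162, 168, 184, 210 and 236 CPM in non-Tg myeloid libraries. Astrocyte libraries held 98.3 to 176 and 141 to 278 CPM, with overlap, and neuron libraries 105 to 152 and 153 to 223 CPM, without. It fell by 0.68 on the log2 scale, with an SE of 0.10 (adjusted p = 0.000129). With the mitochondrial share as a covariate the adjusted p was 0.0484, and with the GC slope 0.372.

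Other genes of small p that were lower were Vps37a, of endosomal sorting, at -0.79 ± 0.13, Sec61a2, of the protein translocon, at -0.82 ± 0.14, and Ptbp2, a splicing regulator of neurons, at -0.76 ± 0.13 (adjusted p = 0.000391, 0.000446 and 0.000446). The activin receptor gene Acvr2a was at -0.93 ± 0.16 (adjusted p = 0.00059). Vps37a and Sec61a2 were called with the mitochondrial share as a covariate (adjusted p = 0.0426 and 0.0484), and none of these 4 with the GC slope.

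Besides Kcnh7 and Gca, 8 genes were among the 10 largest falls by the rule for named genes. Zfp868, a zinc finger gene, was at -1.28 ± 0.25, Alg11, a mannosyltransferase gene of protein glycosylation, at -1.11 ± 0.22, and Wls, which carries Wnt proteins to the surface, at -1.10 ± 0.24 (adjusted p = 0.0023, 0.00243 and 0.00396). Prorsd1 was at -1.29 ± 0.29, Jpx, a noncoding activator of Xist, at -1.12 ± 0.27, Zfp518a at -1.11 ± 0.27 and the peroxisome gene Pex2 at -1.10 ± 0.28 (adjusted p = 0.00473, 0.00644, 0.00679 and 0.00996). Pard3bos1, an antisense RNA that cannot be told from its partner gene without strand, was at -1.43 ± 0.35 (adjusted p = 0.00758). None was called with the GC slope as a covariate.

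On the higher side, Gdpd3, a phosphodiesterase gene, was at 1.36 ± 0.33, the inflammasome sensor gene Nlrp1b at 1.33 ± 0.30 and the immediate early gene Fos at 1.28 ± 0.38 (adjusted p = 0.00788, 0.00531 and 0.0223). Fos changed by 0.39, 2.13 and 0.12 in myeloid, astrocyte and neuron libraries. Of 20 immediate early genes 2 were called, against 12.7% of all genes tested, with a median of 0.11. Without the 3 libraries farthest out the adjusted p of Fos was 0.0575.

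Clock genes changed in both directions. Of 19 tested, 2 were shared and higher and 3 shared and lower, with a median of -0.11. Of the 10700 genes tested in each population, as were 18 of these, 1134 were shared and higher and 802 lower. Dbp and Tef, transcription factor genes driven by the clock, were at -0.98 ± 0.22 and -0.51 ± 0.15 (adjusted p = 0.00448 and 0.0196). Nr1d2, a clock repressor, was at -0.42 ± 0.13 (adjusted p = 0.0231). Without the 3 libraries farthest out, Nr1d2 was not called (adjusted p = 0.0724). Arntl, the clock activator, rose by 0.68 ± 0.14 (adjusted p = 0.00298). In myeloid, astrocyte and neuron libraries, Dbp changed by -1.69, -1.21 and -0.13 and Nr1d2 by -0.72, -0.45 and -0.07. Tef changed by -1.08, -0.22 and -0.21, and Arntl by 0.81, 0.62 and 0.70. The edgeR test of a difference between populations did not call Dbp, Tef or Nr1d2 (adjusted p = 0.22, 0.26 and 0.48). Dbp and Tef have 61.6% and 53.2% GC, and both were called with the GC slope as a covariate (adjusted p = 0.00655 and 0.0325), at -1.40 and -0.81. With the mitochondrial share the adjusted p was 0.139 and 0.323. The labels used here give no time of day.

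Stress genes included Hsph1 and Hsp90ab1, heat shock proteins, which rose by 0.88 ± 0.15 and 0.54 ± 0.12 (adjusted p = 0.000634 and 0.00452), and 4 of 17 tested were shared and higher, with a median of 0.04. Of 20 potassium channel genes, 3 were shared and higher and Kcnh7 alone was shared and lower, with a median of 0.19. The sodium-activated channel gene Kcnt1 rose by 0.68 ± 0.16 (adjusted p = 0.00655). Grn, a lysosomal gene, rose by 0.46 ± 0.11 (adjusted p = 0.00904), and of 22 lysosomal genes tested 3 were shared and higher and 1 lower, with a median of 0.08. Of 20 cholesterol synthesis genes, Mvk was shared at 0.71 ± 0.23 and Msmo1 at -0.67 ± 0.23 (adjusted p = 0.0371 and 0.0456). Of 14 APP processing genes, App was shared and higher and the protease gene Adam17 shared at -0.35 ± 0.12 (adjusted p = 0.0457). Of the 30 fits that left out 1 library, Mvk was called in 17, Msmo1 in 8 and Adam17 in 9, while App was called in all 30. The background for these lists was 10.7% shared among all genes tested and 18.1% among those tested in each population. The called share was 10.0% in the cholesterol list and 14.3% in the APP processing list, near the 12.7% of all genes tested.

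**Figure D4:**
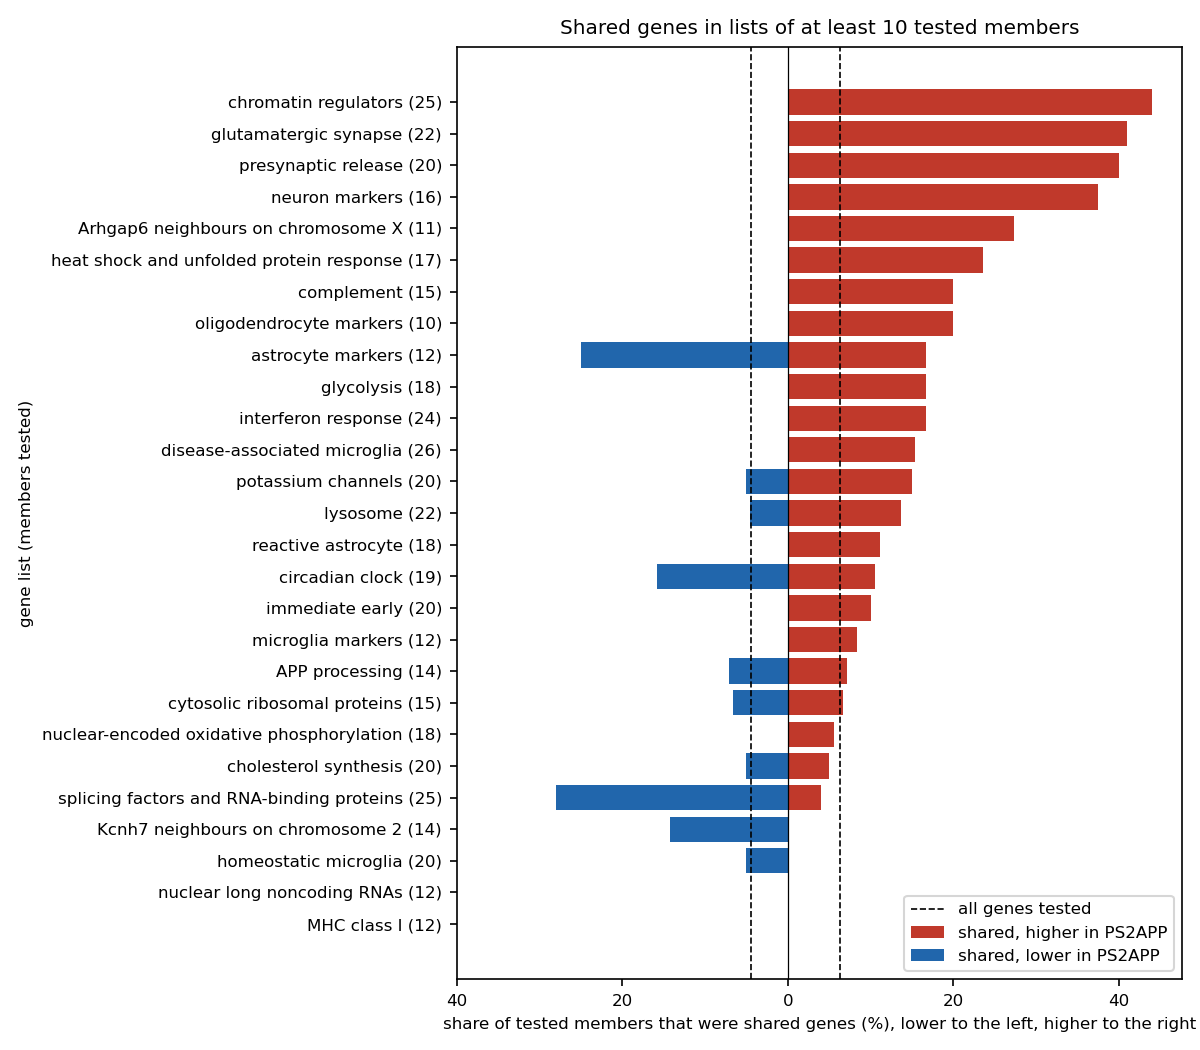
Share of the tested members of each gene list that were shared genes, higher to the right and lower to the left, for lists of at least 10 tested members, with the number tested in brackets and dashed lines for all genes tested. Among these, chromatin, synaptic and neuron lists reach furthest to the higher side, and splicing factors and astrocyte markers to the lower side. The dashed lines include genes not tested in each population, which could not be shared.

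Depth also differed by genotype. Total counts per library lay between 2015535 and 6749681, and the difference of PS2APP from non-Tg libraries averaged -1260000 counts over populations (permutation within populations, two-sided p = 0.00659, adjusted p = 0.0212). It was -2230000 in myeloid, -1370000 in astrocyte and -167000 in neuron libraries (exact permutation p = 0.00794, 0.143 and 0.778). With log2 library size as a covariate, 1484 genes were shared. A count of 3 corresponded to 0.337 to 1.79 CPM. The sort genes followed their sorts, with mean levels of Itgam, which encodes Cd11b, at 1318, 9.53 and 7.23 CPM, of Gfap at 66.8, 1002 and 7.59 CPM and of Rbfox3 at 10.5, 15.9 and 141 CPM (myeloid, astrocyte and neuron).

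**Figure D5:**
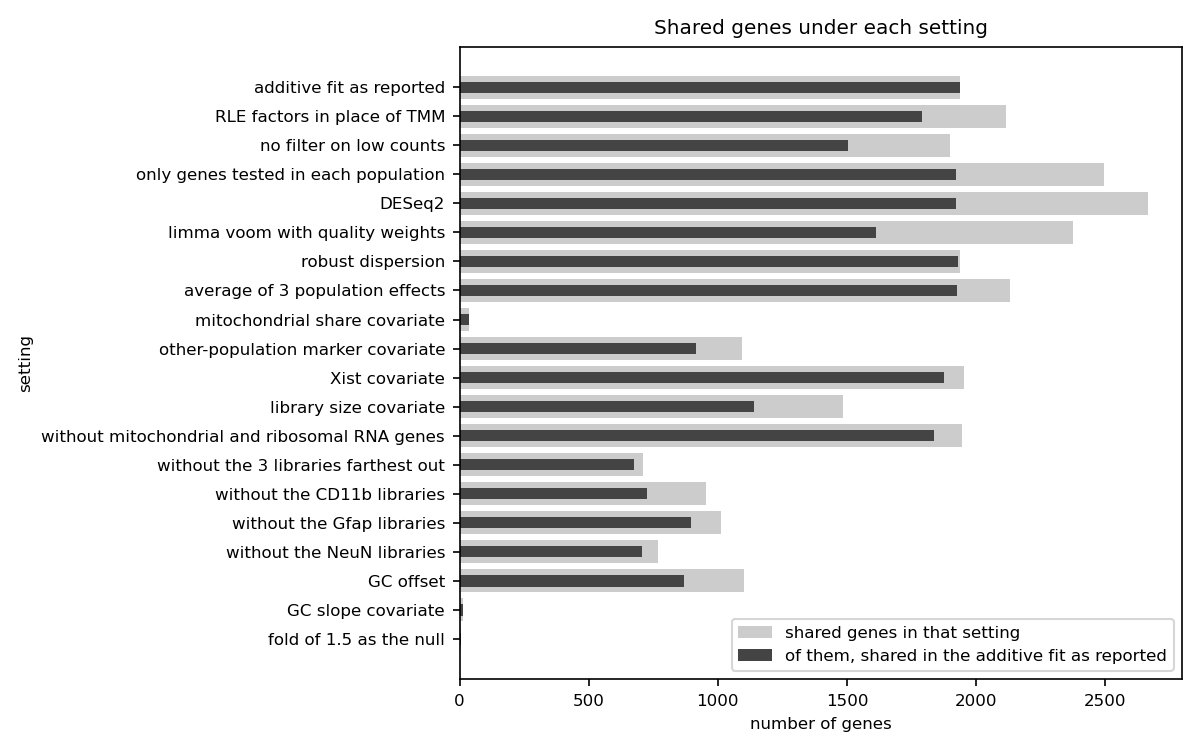
Number of shared genes under each setting (light bars), and how many of them were among the 1936 shared genes as reported (dark bars). The count falls to 36 when mitochondrial share was a covariate, 13 with the GC slope and 7 against a fold of 1.5.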

How the data were processed

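RNA sequencing of 30 libraries was taken up from deposited tables. Counts are, per the file headers, uniquely aligned reads for each gene model, and a further column gives size-factor-adjusted RPKM. The deposited counts were used in every test, and the deposited RPKM values in none. GSNAP and the build GRCm38 are named in the submitters' processing notes; no version is given in the sources used here. A RefSeq table (GRCm38.p6) gave symbols for 31049 of 36528 identifiers, which held 96.7% of the counts.

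Genes passed filterByExpr on the 6 groups. The additive fit used edgeR 4.0.16 (R 4.3.3) with TMM factors, a population and a genotype term, and the quasi-likelihood test. P-values were adjusted by Benjamini and Hochberg over all genes tested, with 0.05 as the threshold. Each population was fitted alone for its sign, and both interaction terms were tested together. CPM use the TMM factors of all libraries. Composition was compared by two-sided permutation of genotype within populations (100000 draws) and exactly within each population, adjusted over 24 tests. Transcript GC is that of the longest GENCODE transcript and was found for 94.2% of genes tested in each population. The fits were tested on simulated data.

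The members and the 31 gene lists were chosen with earlier results of these data known. Genes were named by a written rule: the transgene-linked genes, Gfap, Arhgap6 and Kcnh7; the 10 largest rises and falls among shared genes of average log2 CPM of at least 3 and 1 CPM in each population; the 6 of smallest p in each direction; up to 4 shared members per list; and examples at the rule's edges. It gave 110 genes, of which some are not described. Alternatives changed the normalization, filter, tool (DESeq2 1.42.0, limma 3.58.1), covariates and libraries. The GC settings and the fold null of 1.5 were chosen after seeing the data.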

Additional observations from a re-analysis of the deposited data

Results flagged for a closer look

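In 114 groups of 5 libraries tested for a single library far from the others, 8 had one, and chance alone gives about 1 in 20. Gca stood at 28.3 CPM in non-Tg myeloid replicate 5, Rnf213 at 760 CPM in non-Tg myeloid replicate 2 and Trpm7 at 130 CPM in PS2APP myeloid replicate 5. Thy1 stood at 47.5 CPM in non-Tg astrocyte replicate 4, below every PS2APP astrocyte library. Camk2b reached 2110 CPM in PS2APP neuron replicate 5. Oligodendrocyte markers summed to 1800 CPM in PS2APP myeloid replicate 2, and markers of the other sorted populations to 3490 CPM in PS2APP astrocyte replicate 3. The mitochondrial share was 1.98% in PS2APP neuron replicate 1.

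For 9 described genes the PS2APP effect differed between the populations in edgeR's test of both interaction terms. The adjusted p was 0.00532 for Gfap and also 0.00532 for Csf3r, 0.00772 for Csf1, 0.00323 for Igf1 and 0.000227 for Etl4. It was 0.000537 for Myo1e and also 0.000537 for Myo1f, 5.99e-05 for Abi3 and 0.0154 for C1qb. All 9 but Igf1 and Abi3 were shared genes, so a common direction did not mean an effect of the same size.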

How the results depend on the processing

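The 2296 called and 1936 shared genes became 68 and 36 when mitochondrial share was a covariate, 23 and 13 with the GC slope, 1323 and 1100 with the GC offset, and 16 and 7 against a fold of 1.5. They became 793 and 710 without the 3 libraries farthest out, 1032 and 954 without the myeloid, 1110 and 1013 without the astrocyte, and 848 and 767 without the neuron libraries. With markers of other populations as a covariate 1094 were shared. Leaving out 1 library gave 1460 to 2804 called and 1253 to 2365 shared genes, lowest without PS2APP neuron replicate 5, and 1131 of the shared genes were kept in all 30 such fits. The 70 genes that differed between populations became 119 without a filter and 323 in DESeq2, and 43 to 75 on leaving out 1 library, lowest without non-Tg myeloid replicate 2.

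On raw library totals the markers of other populations differed by 168 CPM (adjusted p = 0.245) and the endothelial markers by -2.67 CPM, against 8.09. Leaving out 1 library gave differences of -1450000 to -1140000 in total count, 2.53 to 3.14 points in mitochondrial share, 256 to 396 CPM in markers of other populations, 319 to 419 CPM in oligodendrocyte and 5.65 to 12.3 CPM in endothelial markers, and 0.245 to 0.301 in GC slope. Psen2, not called, turned to -0.0513 with the mitochondrial share, -0.22 without the 3 libraries, -0.40 with the GC slope and -0.062 without PS2APP astrocyte replicate 3, within -0.062 to 0.407 on leaving out 1 library. Prnp, not called, turned to -0.0881 with library size, -0.12 without the myeloid libraries and -0.0035 without PS2APP myeloid replicate 1, within -0.0035 to 0.141. Slc1a2 turned to 0.0949 with the GC slope. The cause was not tested. No paired analysis was possible because the labels give no replicate numbers: those used here follow accession order and tie no libraries to an animal. Of 87 described genes with a call, 74 lost it in the GC slope fit and 69 in that with mitochondrial share, and none did in DESeq2. Depth limits genes near 3 counts, which is up to 1.79 CPM.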
